A study of Mus musculus with 6 samples.

Results

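The transcripts of 10 genes that release calcium from, or return it to, the sarcoplasmic reticulum of muscle were examined: Ryr1, Ryr2, Ryr3, Cacna1s, Casq1, Casq2, Atp2a1, Atp2a2, Sln and Pln. They were chosen by symbol, out of 19938 genes that the array annotation gives as a single symbol, and each had 1 probe set. RNA was measured on 6 one-colour Affymetrix arrays, 3 labelled Trail knock out and 3 labelled Wildtype, of samples labelled as aorta from mice 6 weeks old. Both genotypes are labelled with the strain C57Bl6/J, and the knockout mice came from Amgen, per the study's design text. Trail is the death ligand encoded by Tnfsf10. The sources used here do not say whether a sample is 1 mouse or a pool, so p-values measure only the spread between these samples.

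In skeletal muscle, the voltage sensor Cacna1s of the surface membrane couples to the release channel Ryr1, and calcium leaves the store that calsequestrin buffers. In fast fibres the pump Atp2a1 returns it. Sarcolipin and phospholamban are small inhibitors of the pumps. Heart muscle uses Ryr2, Casq2 and the pump Atp2a2 in the same places. Smooth muscle of the vessel wall also uses Atp2a2 and phospholamban, and releases calcium through inositol trisphosphate receptors and ryanodine receptors. All values are transcript signals, not protein, on the log2 scale of the deposited table, where 1 unit is a doubling. Since probe sets differ in how brightly they report, levels are compared between arrays for 1 gene and not between genes.

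The arrays were first compared with their labels. Tnfsf10 gave 5.02, 4.48 and 4.09 on the arrays labelled Trail knock out 1, 2 and 3, against 8.42, 4.90 and 4.85 on those labelled Wildtype 1, 2 and 3, so it did not set Wildtype 2 and 3 apart from the knockout arrays. Whether the probe set lies in the deleted part is not known, and directions follow the labels. The array labelled Wildtype 1 stood apart from the other 5, with a Pearson r across the tested probe sets of 0.703 to 0.732 with them. All 13 fast skeletal muscle markers and all 9 squamous epithelium markers were lower there than on the other 5 arrays, and all 8 brown fat and all 8 endothelial markers were higher. Krt4, a keratin of the squamous epithelium list, gave 5.09 on Wildtype 1 and 12.90 to 13.03 elsewhere. Squamous epithelium signal was thus high on the other 5 arrays, although all are labelled as aorta. Ucp1, of the brown fat list, gave 12.32 on Wildtype 1 and at most 4.59 elsewhere. Smooth muscle actin, Acta2, lay between 12.27 and 12.63 on all arrays, while 3 of the 9 smooth muscle markers were below all other arrays on Wildtype 1 and 1 was above. Among all tested probe sets, 31.6% were below and 37.9% above all other arrays there. Actg2, another smooth muscle actin, gave 8.03 there and 10.67 to 11.39 elsewhere. Endothelial markers had list medians of 7.40 to 8.93. Stomach epithelium markers had a median of 12.42 on Trail knock out 2, 6.79 on Wildtype 3 and 4.81 to 5.42 elsewhere. Gkn1 of that list gave 12.97 on Trail knock out 2, 8.99 on Wildtype 3 and at most 5.51 elsewhere. Lung epithelium markers had a median of 8.98 on Trail knock out 1 and 5.55 or less elsewhere. In whole tissue, fewer cells of a type and less RNA per cell cannot be told apart.

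**Figure D1:**
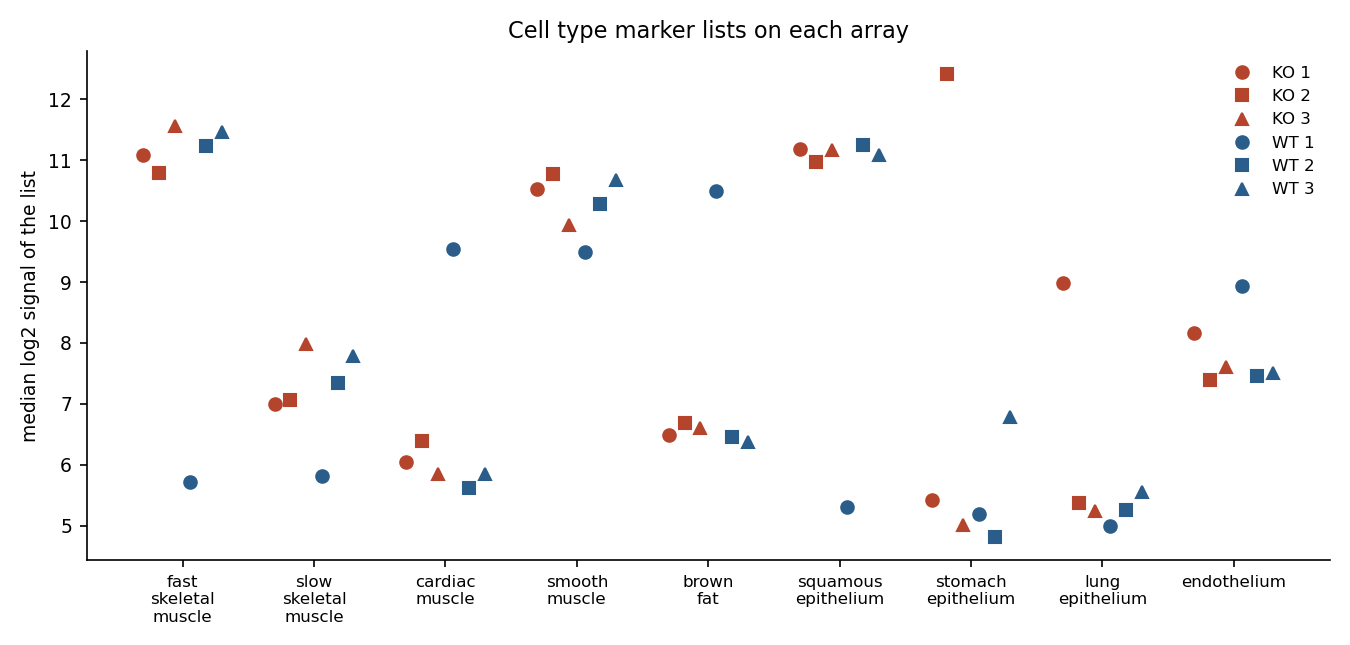
Median log2 signal of 9 lists of cell type markers (horizontal axis) on each array, with the knockout arrays (KO) in red left of the wild-type arrays (WT) in blue. The fast skeletal muscle list lies at 5.71 on WT 1 and at 10.80 to 11.57 on the other arrays, while the smooth muscle list spans 9.50 to 10.78.

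The skeletal muscle set of calcium genes was high on 5 arrays and low on Wildtype 1, with no tested difference between the genotypes. Ryr1, the release channel of skeletal muscle, had 9.70, 9.59 and 9.88 on the knockout arrays, against 5.62, 9.85 and 10.16 on the wild-type arrays. Atp2a1, the pump of fast fibres, had 12.23, 11.77 and 12.33 on the knockout arrays, against 6.36, 12.16 and 12.40 on the wild-type arrays. For both, Wildtype 1 was far below the rest, and the knockout values lay between those of Wildtype 1 and Wildtype 3. Casq1, the calcium buffer of the fast-fibre store, had 10.41, 10.45 and 11.01 on the knockout arrays, against 6.29, 10.61 and 10.95 on the wild-type arrays. Cacna1s, the voltage sensor, had 8.79, 8.47 and 9.07 on the knockout arrays, against 5.70, 8.87 and 9.17 on the wild-type arrays. Both showed the same order of 1 low array and 5 close ones, and the genotypes overlapped for all 4 genes. The gap between Wildtype 1 and the next array was 42.8-fold for Atp2a1, 17.4-fold for Casq1, 15.6-fold for Ryr1 and 6.84-fold for Cacna1s. On Wildtype 1 the signals of Ryr1 and Cacna1s lay under 5.86, the mean signal below which probe sets were left out of the test, and without detection calls such folds may be too small and have no firm order. Acta1, skeletal muscle actin, had a gap of 52.5-fold on the same array. Over the other 5 arrays, the highest value of each of the 4 genes was 1.49-fold to 1.62-fold the lowest.

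**Figure D2:**
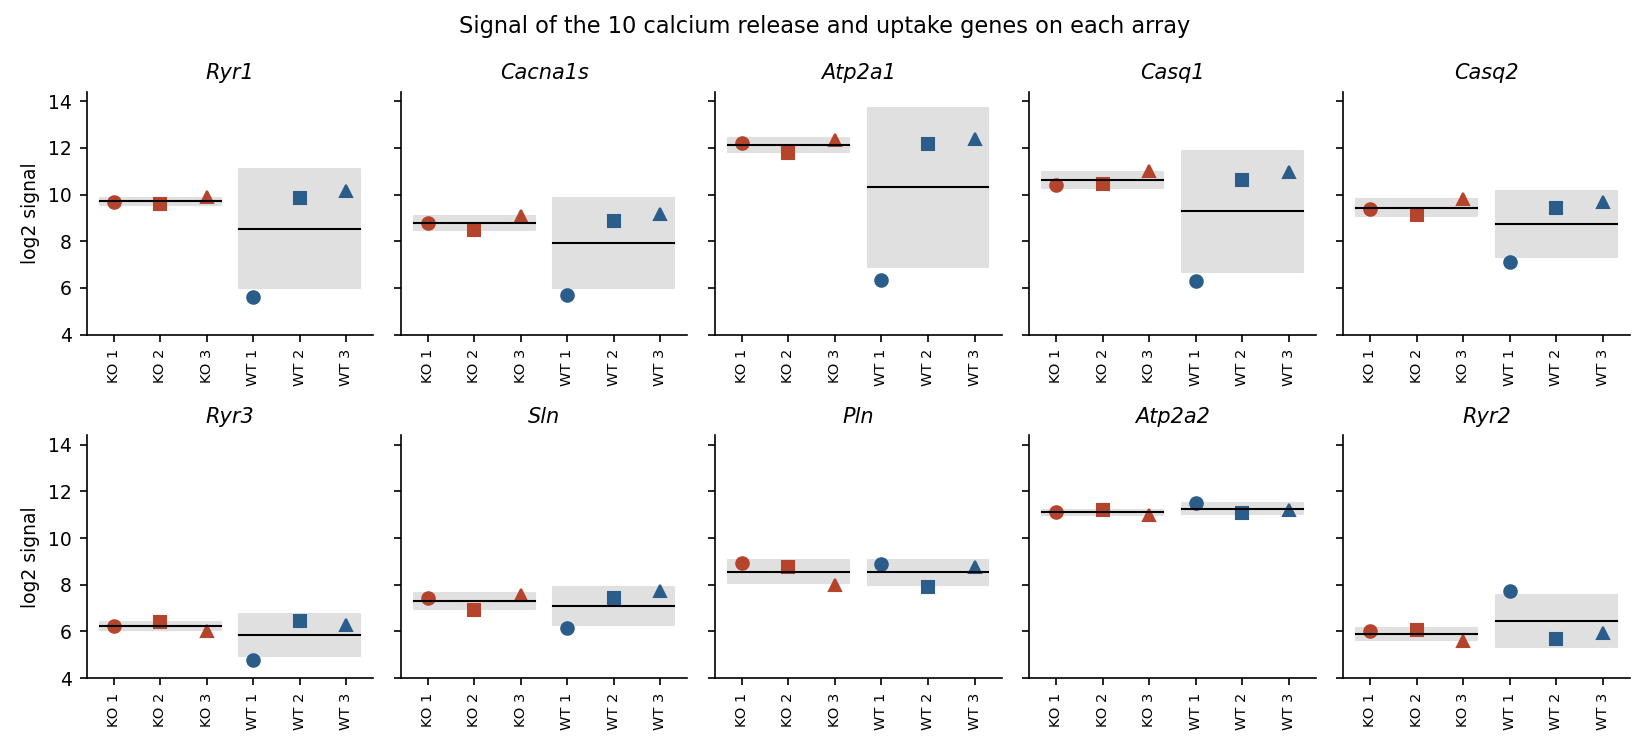
Log2 signal of each of the 10 genes (1 panel each) on the 3 knockout arrays (KO, red) and the 3 wild-type arrays (WT, blue). The line is the group mean and the grey band 1 SD. WT 1 is the lowest point for 7 genes, the highest for Ryr2 and Atp2a2, and inside the range for Pln.

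The stretch before the start site was read for these genes, because several of them moved together between arrays. Of the 10 genes, 7 had a window in the RefSeq promoter table (GRCm38.p6), and Ryr3, Atp2a2 and Sln are named only. The 250 bases before the start given there were searched on both strands for the E-box CANNTG, which muscle lineage factors of the MyoD family bind, and for the MEF2 and CArG boxes of muscle genes. The windows of Ryr1, Atp2a1 and Cacna1s reach into the annotated span of the gene, further for Ryr1 and Atp2a1 than for Cacna1s. For these genes this start is therefore not the outer end of that span. The windows of 3 skeletal muscle genes, of Casq2 (low on Wildtype 1 as well) and of Ryr2 (high there) are printed with each match in capitals.
Atp2a1, chr7:126463074-126463323, minus strand: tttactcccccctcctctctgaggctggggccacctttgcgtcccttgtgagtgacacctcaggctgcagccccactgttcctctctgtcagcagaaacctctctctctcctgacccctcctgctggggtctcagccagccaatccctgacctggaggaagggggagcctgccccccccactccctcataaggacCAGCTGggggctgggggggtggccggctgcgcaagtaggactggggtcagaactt
Casq1, chr1:172219896-172220145, minus strand: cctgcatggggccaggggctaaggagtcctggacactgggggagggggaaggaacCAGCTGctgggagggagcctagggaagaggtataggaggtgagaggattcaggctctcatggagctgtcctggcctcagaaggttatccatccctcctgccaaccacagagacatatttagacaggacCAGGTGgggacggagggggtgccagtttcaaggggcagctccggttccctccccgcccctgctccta
Cacna1s, chr1:136052561-136052810, plus strand: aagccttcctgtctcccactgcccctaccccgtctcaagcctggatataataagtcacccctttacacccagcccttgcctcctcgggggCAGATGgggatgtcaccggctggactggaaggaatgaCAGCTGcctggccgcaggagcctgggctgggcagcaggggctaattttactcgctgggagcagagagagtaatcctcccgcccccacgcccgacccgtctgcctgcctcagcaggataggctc
Casq2, chr3:102086165-102086414, plus strand: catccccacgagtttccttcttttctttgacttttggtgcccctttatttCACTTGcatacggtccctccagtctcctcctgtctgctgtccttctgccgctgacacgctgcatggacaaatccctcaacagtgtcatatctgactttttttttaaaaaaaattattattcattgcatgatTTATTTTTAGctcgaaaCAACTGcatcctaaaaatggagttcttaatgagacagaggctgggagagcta
Ryr2, chr13:12106946-12107195, minus strand: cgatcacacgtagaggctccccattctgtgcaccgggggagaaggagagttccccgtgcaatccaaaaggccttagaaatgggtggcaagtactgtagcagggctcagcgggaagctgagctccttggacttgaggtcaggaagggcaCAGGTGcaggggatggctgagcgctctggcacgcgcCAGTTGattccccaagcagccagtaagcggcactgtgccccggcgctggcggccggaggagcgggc
The E-box CANNTG was present in 66.2% of 32851 windows of this length, so a match is common. The form CAGCTG, chosen after these windows had been read, was in the windows of Atp2a1, Casq1 and Cacna1s, and in 13% of all windows. The window of Casq2 holds a MEF2 box, which starts 69 bases before the start site, and 2.92% of all windows hold one. The CArG box, in 1.47% of all windows, was in none of the 7, and Ryr1 had no match to any of these motifs in its window. These are matches of letters and do not show that a factor binds.

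Members used by cardiac, slow and smooth muscle did not follow 1 pattern. Casq2, the calsequestrin of heart and slow fibres, had 9.37, 9.11 and 9.83 on the knockout arrays, against 7.13, 9.44 and 9.67 on the wild-type arrays. Its low value on Wildtype 1, by a gap of 3.93-fold, lies on the same side as those of the skeletal genes. With any gap counted, 5 of 7 slow skeletal muscle markers were below all other arrays there, as were 31.6% of all tested probe sets. Myh7, the slow myosin, was below them by only 0.21 log2 units, at 5.71. Myl2 was dim on every array, at 4.54 to 4.87 on those other than Wildtype 1, and was not tested. Tnnc1, the troponin C of slow and heart muscle, was above all other arrays at 8.57, with at most 6.64 elsewhere. Ryr2, the release channel of heart muscle, had 6.02, 6.06 and 5.60 on the knockout arrays, against 7.71, 5.68 and 5.95 on the wild-type arrays. It was the 1 member of which Wildtype 1 held the highest value by more than 1 log2 unit, 3.14-fold above the next array. On the other arrays Ryr2 lay near the cut of 5.86, so the size of this fold is not firm. Of 9 cardiac markers, 6 were above all other arrays on Wildtype 1, as were 37.9% of all tested probe sets. Myh6, the alpha myosin heavy chain of the mouse heart, was at 9.64 there and at most 5.45 elsewhere. Actc1, at 11.36, and Nppb, at 5.17, were below all others. The part that heart, brown fat or endothelial transcripts have in the Ryr2 value was not tested. The median of the cardiac list was 6.05, 6.39 and 5.85 on the knockout arrays, against 9.54, 5.62 and 5.85 on the wild-type arrays. The log2 of the summed signals of the cardiac list, in which Actc1 is the brightest gene, spanned 12.61 to 13.02 on the knockout arrays and 12.57 to 12.93 on the wild-type arrays, with 12.73 on Wildtype 1. That of the brown fat list spanned 10.86 to 11.59 on the knockout arrays and 11.47 to 14.24 on the wild-type arrays.

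Atp2a2 and Pln, the pump and the inhibitor that smooth muscle shares with heart, differed least on Wildtype 1. Atp2a2, which is also the pump of most non-muscle cells, had 11.12, 11.21 and 10.99 on the knockout arrays, against 11.51, 11.07 and 11.21 on the wild-type arrays. Wildtype 1 was the highest, by 1.23-fold over the next array, and the 6 values spanned less than 1 log2 unit, unlike those of the other 9 genes. Across all tested probe sets, 25.8% spanned more than 1 unit. Pln, phospholamban, had 8.94, 8.77 and 7.99 on the knockout arrays, against 8.90, 7.91 and 8.77 on the wild-type arrays. Its low arrays were Trail knock out 3 and Wildtype 2, 1 of each genotype, and Wildtype 1 was among the high ones. Acta2 had its lowest values on these same 2 arrays, 12.27 and 12.39, but spanned only 0.37 over the 6 arrays, against 1.03 for Pln. Myh11, Tagln, Smtn and Mylk of the smooth muscle list were also lowest on these 2 arrays. The rest of that list went another way: Cnn1, Actg2 and Synpo2 were lowest on Wildtype 1, and Lmod1 on Wildtype 2 and then Wildtype 1. Pln was the only member that spanned over 1 log2 unit among the 5 arrays other than Wildtype 1, where 4.63% of tested probe sets did so.

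The remaining members were Ryr3 and Sln. Ryr3, a release channel found at low levels in several muscles and in brain, had 6.23, 6.38 and 6.03 on the knockout arrays, against 4.79, 6.45 and 6.29 on the wild-type arrays. Sln, sarcolipin, a pump inhibitor of atrial and some skeletal muscle in the mouse, had 7.43, 6.92 and 7.55 on the knockout arrays, against 6.17, 7.41 and 7.72 on the wild-type arrays. Wildtype 1 was the lowest for both, 2.36-fold below the next array for Ryr3 and 1.68-fold for Sln. There Ryr3 lay under the cut of 5.86, so the size of its fold is not firm. In all, 6 of 10 members were more than 1 log2 unit below every other array on Wildtype 1, where 7.41% of 14046 tested probe sets were, and 1 was as far above, where 6.27% were. With any gap counted, 7 of 10 were below and 2 above, against 31.6% and 37.9% of tested probe sets. No member was more than 1 unit from all others on any other array, where 0% to 1.16% of tested probe sets were so far above (0.057% on Trail knock out 1, 0.0142% on Wildtype 3) and 0% or 0.00712% so far below. These counts describe 1 array and carry no test.

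Among the 5 arrays other than Wildtype 1, the members spanned a median of 0.615 log2 units, against 0.36 over all tested probe sets. No single order of the arrays held for all members. Trail knock out 2, the array with the highest stomach markers, held the lowest value of 5 of the 10 genes (Ryr1, Atp2a1, Cacna1s, Casq2 and Sln). There 35.8% of all tested probe sets were lowest as well, so this count is not particular to the members. Wildtype 3, where stomach markers were next highest, held the highest value of 5 (Ryr1, Atp2a1, Cacna1s, Sln and, by less than 0.01, Atp2a2). There 12% of tested probe sets were highest. The median of the fast skeletal muscle markers was also lowest on Trail knock out 2, with 11.09, 10.80 and 11.57 on the knockout arrays and 11.23 and 11.47 on Wildtype 2 and 3. The part of the amount of skeletal muscle in these orders was not tested.

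Trail knockout was then compared with wild type, the question of the study's design. No member passed, with an adjusted p of 0.921 to 0.979 in limma over 14046 probe sets, of which 0% passed at 0.05, or 0.634% at an unadjusted p under 0.05. Ryr1 averaged 9.72 ± 0.15 in the knockout and 8.54 ± 2.54 in wild type (SD, n = 3 each), a difference of 1.18 (95% interval -1.84 to 4.19). Atp2a1 averaged 12.11 ± 0.30 in the knockout and 10.31 ± 3.42 in wild type (SD, n = 3 each), a difference of 1.81 (95% interval -2.26 to 5.87). The wild-type SD of both was set by Wildtype 1. The differences, knockout minus wild type, were 1.34 (SE 1.26) for Casq1, 0.87 (SE 0.94) for Cacna1s, 0.69 (SE 0.70) for Casq2, 0.37 (SE 0.45) for Ryr3 and 0.20 (SE 0.43) for Sln. They were 0.036 (SE 0.37) for Pln, -0.15 (SE 0.15) for Atp2a2 and -0.55 (SE 0.55) for Ryr2. The groups overlapped for all 10 members, and 5.6% of tested probe sets had groups that did not overlap. The median difference was 0.53 over the members and -0.032 over all tested probe sets.

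Without Wildtype 1 the sign turned for 8 of the 10 members, and none passed (limma adjusted p = 0.997 for each). In that limma fit 0% of tested probe sets passed, and 1.54% had an unadjusted p under 0.05. Differences were above 0 for 8 of 10 members on 6 arrays and for 2 of 10 without Wildtype 1. The shares of all tested probe sets above 0 were 43.5% and 41.6%, and their turns of sign were not counted. Ryr1 was at -0.28 (95% interval -0.63 to 0.064), the lowest unadjusted p of the 10, and Atp2a1 at -0.17 (95% interval -0.59 to 0.25). Casq1 was at -0.16 (SE 0.21), Cacna1s at -0.24 (SE 0.20), Casq2 at -0.12 (SE 0.22), Ryr3 at -0.16 (SE 0.15) and Sln at -0.27 (SE 0.21). Ryr2 was at 0.080 (SE 0.19), Pln at 0.22 (SE 0.35) and Atp2a2 at -0.029 (SE 0.11). On these 5 arrays the 95% interval of Atp2a2 was -0.28 to 0.22, the narrowest of the 10, and that of Pln was -0.61 to 1.06. The intervals are for 3 knockout and 2 wild-type arrays.

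**Figure D3:**
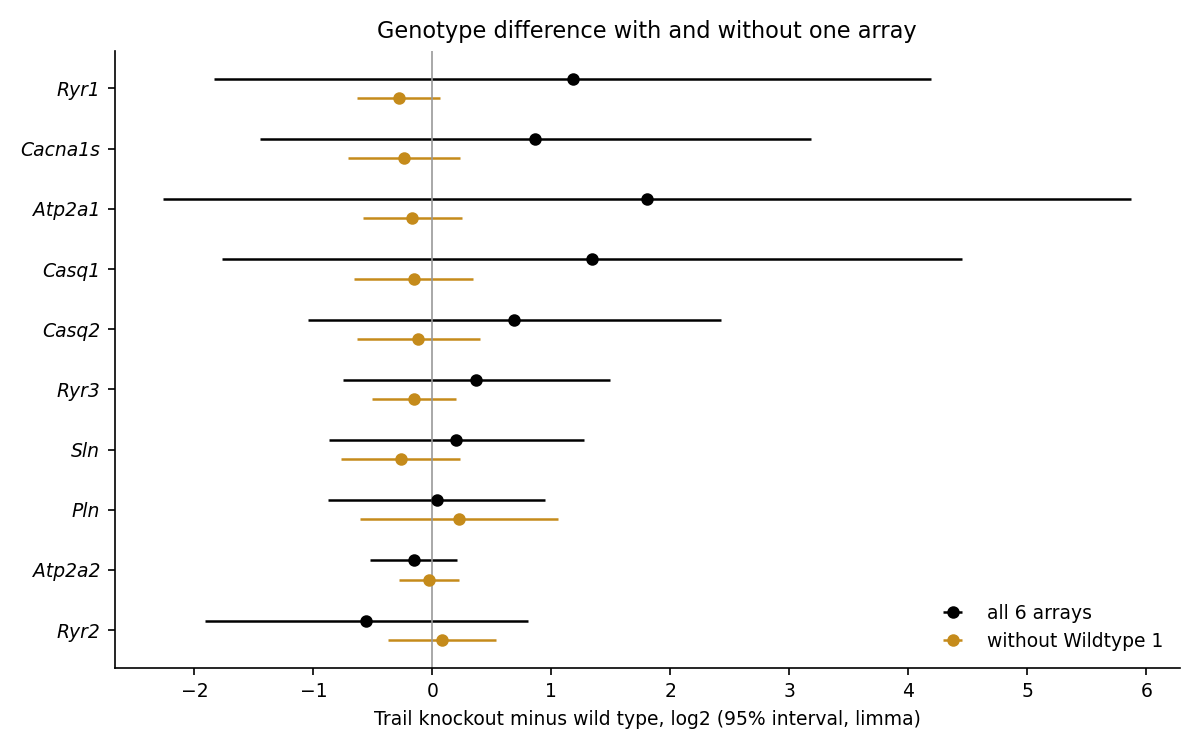
Difference between Trail knockout and wild type (horizontal axis, log2, with the 95% interval from limma) for each of the 10 genes, on all 6 arrays in black and without Wildtype 1 in yellow. Every interval includes 0, and that of Atp2a1 narrows from -2.26 to 5.87 on 6 arrays to -0.59 to 0.25 on 5.

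Isoform pairs were contrasted on each array by subtracting 1 gene's log2 value from the other's, and reading the result only between arrays, where the brightness of the probes cancels. For Atp2a1 minus Atp2a2 the contrast, centred on its mean over the 6 arrays, was 1.09, 0.54 and 1.31 on the knockout arrays, against -5.18, 1.07 and 1.17 on the wild-type arrays. For Ryr1 minus Ryr2 it was 0.72, 0.56 and 1.32 on the knockout arrays, against -5.06, 1.21 and 1.25 on the wild-type arrays. In both pairs the balance was shifted away from the skeletal muscle gene on Wildtype 1 alone, and the knockout values lay inside the range of the wild-type values or just above its top. For Casq1 minus Casq2 the centred contrast was 0.18, 0.48 and 0.32 on the knockout arrays, against -1.71, 0.31 and 0.42 on the wild-type arrays. The calsequestrins therefore shifted less against each other, since both were low on Wildtype 1. For Ryr1 minus Ryr3 it was 0.37, 0.10 and 0.75 on the knockout arrays, against -2.27, 0.30 and 0.76 on the wild-type arrays. On Wildtype 1 both Ryr1 (5.62) and Ryr3 (4.79) lay under the cut of 5.86, and on the other arrays Ryr2 lay near it. The sizes of the 2 contrasts of ryanodine receptors are therefore not firm. Sln minus Pln, the pump inhibitors, gave -0.16, -0.50 and 0.90 on the knockout arrays, against -1.39, 0.85 and 0.29 on the wild-type arrays. The high arrays of that last pair were Trail knock out 3 and Wildtype 2, those with little Pln.

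None of the 5 contrasts passed between the genotypes, in a two-sided exact permutation test whose smallest p with 3 arrays against 3 is 0.1. Knockout minus wild type was 1.96 for Atp2a1 minus Atp2a2 (exact p = 0.6), 1.73 for Ryr1 minus Ryr2 (exact p = 0.8) and 0.81 for Ryr1 minus Ryr3 (exact p = 0.7). It was 0.65 for Casq1 minus Casq2 (exact p = 0.6) and 0.16 for Sln minus Pln (exact p = 0.9). Adjusted over the 5 contrasts, each exact p was 0.9. Without Wildtype 1 the same differences were -0.14, -0.36, -0.13, -0.036 and -0.49, so the sign of each turned.

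**Figure D4:**
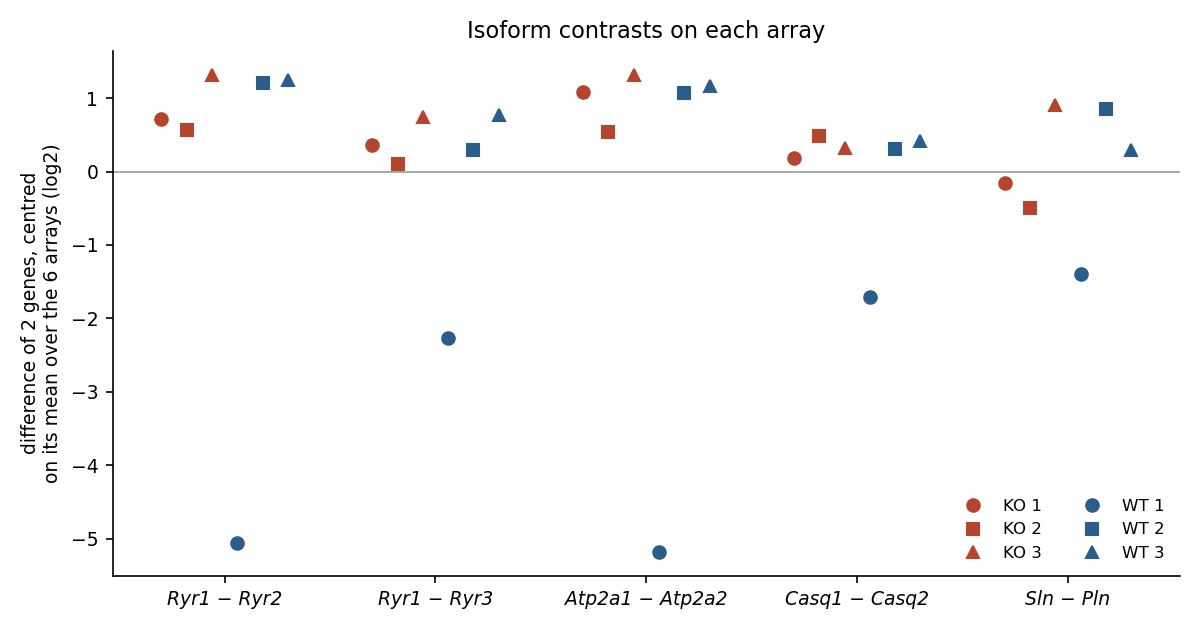
Difference in log2 signal between the genes of each pair, centred on the mean over the 6 arrays (vertical axis), with the knockout arrays (KO) in red left of the wild-type arrays (WT) in blue. WT 1 lies at -5.18 for Atp2a1 minus Atp2a2 and at -1.71 for Casq1 minus Casq2, and is the lowest array in all 5 pairs.

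Other genes of muscle calcium handling were read from 5 lists of 46 symbols, of which 40 had a probe set and 34 were tested. None passed in either direction on 6 arrays (limma adjusted p at least 0.921) or without Wildtype 1 (at least 0.997). On 6 arrays 24 of the 34 differences were above 0 (43.5% of all tested probe sets), and without Wildtype 1 it was 15 of 34 (41.6%). Their median difference was 0.14 on 6 arrays and -0.038 without Wildtype 1, against -0.032 and -0.028 over all tested probe sets. On Wildtype 1, 10 of the 34 were more than 1 log2 unit below every other array and 2 as far above, beside the 7.41% and 6.27% given above.

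The 6 genes with the largest span over the arrays were all low on Wildtype 1. Trdn, triadin, which anchors calsequestrin to the release channel, had 11.05, 10.89 and 11.28 on the knockout arrays, against 5.86, 11.20 and 11.57 on the wild-type arrays. Jph1, the junctophilin that ties the store to the surface membrane in skeletal muscle, had 9.22, 9.02 and 9.52 on the knockout arrays, against 5.54, 9.45 and 9.74 on the wild-type arrays. Both had the shape of Ryr1 and Atp2a1, with 1 low array and a gap of 32.6-fold for Trdn and 11.2-fold for Jph1. On that array Trdn lay near the cut of 5.86 and Jph1 under it, so the size of these folds is not firm. Trdn had 19 probe sets and Jph1 had 2, of which only the 1 with the highest mean was read for each. Cacng1, a subunit of the skeletal voltage sensor, gave 5.34 on Wildtype 1 and 8.75 to 9.99 elsewhere, and Stac3, an adaptor that the sensor needs, gave 5.23 and 7.23 to 8.14. Pvalb, the calcium buffer parvalbumin of fast fibres, gave 5.46 on Wildtype 1 and 8.52 to 9.49 elsewhere. Ppp1r3a, a glycogen-targeting phosphatase subunit of muscle, gave 4.997 there and 9.27 to 10.17 elsewhere. The genotypes overlapped for each, and the differences were 1.53 (SE 1.54) for Trdn and 1.01 (SE 1.13) for Jph1 on 6 arrays, and -0.31 (SE 0.16) and -0.34 (SE 0.18) without Wildtype 1.

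Other genes of the lists spanned less, or had other high arrays. The 4 with the smallest span were Asph (0.16), which encodes junctin beside a hydroxylase, Camk2g (0.26), a calmodulin kinase, Fkbp1a (0.28), a partner of ryanodine receptors, and Atp2b2 (0.31), a calcium pump of the surface membrane. The genes more than 1 log2 unit above all others on Wildtype 1 were Itpr2, an inositol trisphosphate receptor, at 9.63 with at most 8.60 elsewhere, and S100a1, a calcium sensor of heart muscle, at 10.15 with at most 8.76 elsewhere. Itpr3, another such receptor, had 7.60, 8.68 and 7.33 on the knockout arrays, against 6.78, 7.50 and 7.48 on the wild-type arrays. Its high array was Trail knock out 2, where 1 of the 34 genes and 1.16% of all tested probe sets were more than 1 unit above the rest, and where the stomach markers were high. Their part in the Itpr3 value was not tested. Cacna1c, the voltage-gated channel of heart and smooth muscle, had 7.18, 7.38 and 6.88 on the knockout arrays, against 6.98, 7.03 and 7.10 on the wild-type arrays. It did not set Wildtype 1 apart, unlike its skeletal counterpart Cacna1s. Itpr2, S100a1, Itpr3 and Cacna1c were named after their values were seen, as were the other markers given for single lists.

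**Figure D5:**
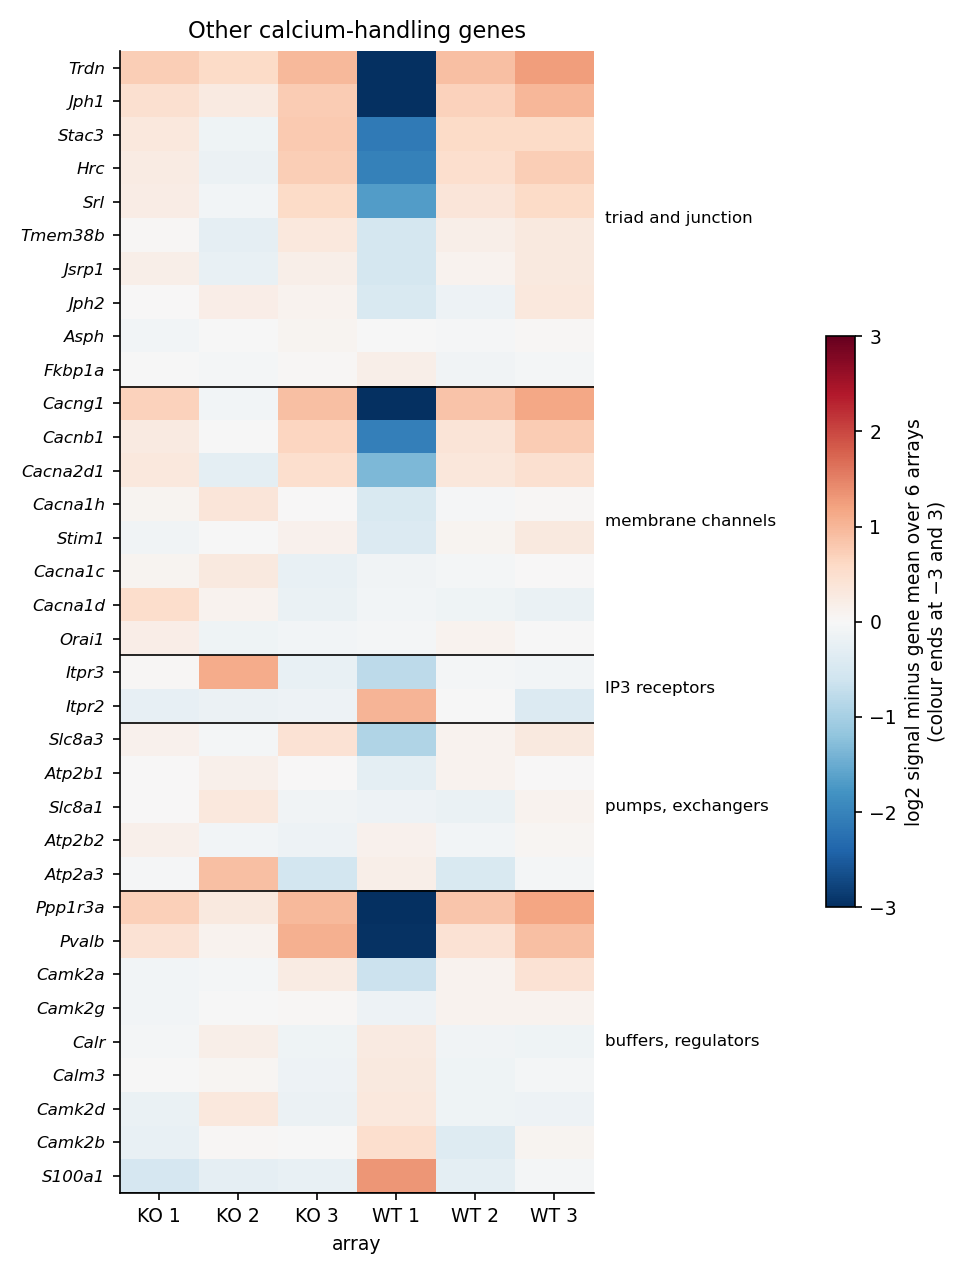
Log2 signal of the 34 tested genes of the calcium-handling lists on each array, minus the mean of that gene over the 6 arrays (colour), with knockout arrays (KO) left of wild-type arrays (WT). Trdn, Jph1, Cacng1, Ppp1r3a and Pvalb are dark blue on WT 1, and Itpr3 is red on KO 2.

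The genes most like each member were found by the root mean square distance between profiles over the 6 arrays, each centred on its own mean, among 12028 other genes. Atp2a1 lay closest to Tnni2 (0.088) and Tnnt3 (0.102), fast troponin subunits, and to Myot (0.115), a Z-disc protein gene. Ryr1 lay closest to Klhl31 (0.096), Pygm (0.116), the muscle glycogen phosphorylase, and Map4 (0.123). Casq1 lay closest to Nrap (0.104), Sim2 (0.140) and Klhl31 (0.148), and Cacna1s to Txlnb (0.052), Hspb6 (0.067) and Alpk3 (0.091). Casq2 lay closest to Nexn (0.059), Rragd (0.061) and Serpinb6a (0.077), and Sln to Filip1 (0.069), Neurl1a (0.072) and Crip3 (0.073). All of these genes had their lowest value on Wildtype 1, as the member had. Since neighbours were chosen on these same values, a shared low or high array is no separate result. Ryr2 lay closest to Abhd15 (0.052), Cgnl1 (0.069) and Lyplal1 (0.073), which were high on Wildtype 1. Ryr3 lay closest to Plekha7 (0.102), Atp13a5 (0.107) and Cdc42bpg (0.109). Pln lay closest to Lrp2 (0.137), Fam117a (0.163) and Chrdl1 (0.184), and Atp2a2 to Nek4 (0.018), Mrps24 (0.022) and Mtap (0.030). A small distance for Atp2a2 says little, since its profile is nearly flat.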

How the data were processed

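Gene expression was measured in 6 samples labelled as mouse aorta, on one-colour Affymetrix arrays with cRNA labelled with biotin, per the labels' protocols. The authors deposited log2 values for 35399 probe sets on each array, between 1.55 and 13.96, from which the log base was read. MAS5 is named in the submitters' processing notes with no role. Background correction, summary, scaling and the array's genome build were: not given in the sources used here. Values were used as deposited. Without detection calls dim values have no marked floor, and the number of arrays limits precision.

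Of 23410 annotated probe sets, 21789 have 1 symbol and 1621 several, and the remaining 11989 were not used. Leaving out the lowest 40% by mean signal over the 6 arrays left 14046, among them all 10 members. Knockout minus wild type was fitted in limma 3.58.1 under R 4.3.3 (eBayes with trend, Benjamini-Hochberg, 0.05), after a test on simulated data. In that test 46% of changes of 1 log2 unit and 70% of changes of 2 units were recovered. Its errors were drawn independently for each probe set, so it does not show what the fit detects where 1 array differs in many genes together. Isoform contrasts were tested by exact permutation. For each named gene, the single-symbol probe set with the highest mean over the 6 arrays was used. Named genes were the members, the 6 widest and 4 narrowest of the calcium-handling lists, single markers, and the 3 nearest genes of each member. Other genes named were chosen after their values were seen. Members and lists were chosen with earlier results of these data known. Promoter sequences are from RefSeq, GRCm38.p6. Alternatives were a pseudocount of 64, quantile normalization, median centring, no filter or one of 60%, no trend, array weights, a replicate block, the mean of a gene's probe sets, and leaving out each array.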

Additional observations from a re-analysis of the deposited data

How the results depend on the processing

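The count of probe sets passing in limma was 0 of those tested under all 14 alternatives, and 27 to 611 had an unadjusted p under 0.05 (89 in the fit as reported). The lowest adjusted p of any member under any alternative was 0.767. Members turned sign when array weights were used, to -0.11 for Atp2a1, -0.27 for Cacna1s, -0.26 for Casq1, -0.17 for Casq2, -0.32 for Ryr1, -0.084 for Ryr3 and -0.29 for Sln, with the estimation of the weights stopped short of its tolerance. Leaving out 1 array at a time, the differences spanned -0.28 to 1.99 for Ryr1, -0.17 to 2.85 for Atp2a1, -0.16 to 2.17 for Casq1, -0.24 to 1.49 for Cacna1s, -0.12 to 1.15 for Casq2, -0.16 to 0.67 for Ryr3, -0.27 to 0.51 for Sln, -0.27 to 0.32 for Pln, -0.94 to 0.080 for Ryr2 and -0.25 to -0.029 for Atp2a2. The contrasts spanned -0.14 to 3.04 for Atp2a1 minus Atp2a2, -0.36 to 2.79 for Ryr1 minus Ryr2, -0.13 to 1.39 for Ryr1 minus Ryr3, -0.036 to 1.02 for Casq1 minus Casq2 and -0.49 to 0.63 for Sln minus Pln. The sign turned without Wildtype 1 in all 5 contrasts and in all members except Atp2a2 and Pln. Pln turned without Trail knock out 1, without Trail knock out 2 or without Wildtype 2, and the contrast Sln minus Pln also without Trail knock out 3 (-0.25). Leaving out Wildtype 2 or 3 gives Wildtype 1 more weight, so the larger differences there do not strengthen the result. Ryr2 and Ryr3 did not pass the 60% filter and have no value there. Each member has 1 probe set, so the mean over probe sets gave the same values. The replicate numbers are known only as labels. Deviations of same-numbered arrays from their group means had correlations of 0.095, -0.231 and 0.198. The highest of all pairs, 0.41, was between Trail knock out 3 and Wildtype 2. Deviations within a group depend on each other, and Wildtype 1 stood apart, so these correlations cannot show whether the numbers mark pairs. With the replicate number as a block, 0 probe sets passed in limma, 73 had an unadjusted p under 0.05, and Atp2a1 was at 1.81 (adjusted p = 0.972). No other alternative turned a sign.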
